A study of Mus musculus with 17 samples.

Results

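The genes described here are the germ-cell isoforms of enzymes of energy metabolism, measured beside the somatic isoforms of the same enzymes. The set was chosen by name. It holds 6 germ-cell isoforms (Ldhc, Ldhal6b, Pdha2, Pgk2, Cox8c and Cox6b2) and 4 somatic counterparts (Ldha, Ldhb, Pdha1 and Pgk1), which is 10 of the 23980 genes listed at each of the 2 stages. All 10 were listed at both stages. After a filter on low counts, 9 of the 10 entered the tests at each stage, and Pgk2 did not.

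Poly(A)-selected, strand-specific RNA sequencing was done on 17 mouse libraries of the C57BL6/J strain, to ask how the loss of Pld6 or of Dnmt3l alters the transcriptome of male germ cells. Germ cells make PIWI-interacting RNAs (piRNAs) with the help of Pld6, an enzyme of the mitochondrial surface, while Dnmt3l is a cofactor of the de novo DNA methyltransferases. Leptotene/zygotene (L/Z) spermatocytes, cells at the start of meiotic prophase, were sorted by flow cytometry from mice 3 to 4 weeks old and came from wild type (WT, 2 libraries), Pld6 KO (2) and Dnmt3l KO (2). Whole testes at postnatal day 0 (P0) came from WT (2 libraries), Pld6 KO (4), Dnmt3l KO (2) and animals lacking both genes (DKO, 3). L/Z libraries were read as single ends of 50 bp and P0 libraries as paired ends of 100 bp, so stage, tissue and read type change together. The labels call the replicates biological but do not say how many animals entered a library.

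Lactate dehydrogenase (LDH) interconverts pyruvate and lactate. Oxidation of glucose passes through phosphoglycerate kinase (PGK), which makes ATP in glycolysis, and pyruvate dehydrogenase (PDH), which carries pyruvate into the citric acid cycle. Cytochrome c oxidase (COX) then reduces oxygen at the end of the respiratory chain. Male germ cells replace several of these enzymes by isoforms hardly used elsewhere: Ldhc for Ldha and Ldhb, and Pdha2 and Pgk2 for Pdha1 and Pgk1, whose genes lie on the X chromosome, which is silenced in the later meiotic cells. Cox8c and Cox6b2 are testis isoforms of the small COX subunits made elsewhere from Cox8a and Cox6b1. Their products serve spermatocytes, spermatids and sperm.

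On the GRCm38 assembly Ldhc lies on chromosome 7 (46861263 to 46878147), 5635 bp from Ldha (chromosome 7, 46842274 to 46855627), while Ldhb is on chromosome 6. Pdha2 (chromosome 3, 141210004 to 141212355), Pgk2 (chromosome 17, 40207018 to 40208609) and Ldhal6b (chromosome 17, 5417323 to 5418767) each have 1 exon, whereas Pdha1 and Pgk1 have 11 exons each and lie on the X chromosome. Cox6b2 is on chromosome 7 (4751792 to 4753094) and Cox8c on chromosome 12 (102899306 to 102900534). All 10 are annotated as protein coding. Retroposed copies without introns resemble their parent genes, and how short reads were divided between near-identical copies is not given in the sources used here.

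Since Dnmt3l acts on DNA methylation, which falls on CpG dinucleotides, the 250 bases before the start of 4 germ-cell isoforms are shown, read 5′ to 3′ on the gene's strand from RefSeq (GRCm38.p6) with each CpG in capitals. The windows are Ldhc at chr7:46861013-46861262 (plus strand), Ldhal6b at chr17:5418768-5419017 (minus strand), Cox6b2 at chr7:4753095-4753344 (minus strand) and Pdha2 at chr3:141212356-141212605 (minus strand).
Ldhc: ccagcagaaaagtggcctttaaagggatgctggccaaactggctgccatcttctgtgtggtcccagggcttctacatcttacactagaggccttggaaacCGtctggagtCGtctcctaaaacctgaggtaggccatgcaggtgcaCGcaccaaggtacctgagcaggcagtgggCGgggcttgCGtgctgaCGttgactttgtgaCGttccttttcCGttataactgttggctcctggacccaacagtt
Ldhal6b: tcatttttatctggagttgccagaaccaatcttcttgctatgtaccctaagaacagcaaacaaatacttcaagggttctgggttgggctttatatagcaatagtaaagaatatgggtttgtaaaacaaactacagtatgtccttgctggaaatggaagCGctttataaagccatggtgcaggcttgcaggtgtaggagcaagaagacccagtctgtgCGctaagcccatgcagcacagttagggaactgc
Cox6b2: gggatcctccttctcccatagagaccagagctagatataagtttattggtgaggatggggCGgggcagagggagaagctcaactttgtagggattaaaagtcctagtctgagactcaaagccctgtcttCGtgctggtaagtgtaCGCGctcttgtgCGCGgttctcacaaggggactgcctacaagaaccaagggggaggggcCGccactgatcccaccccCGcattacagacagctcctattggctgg
Pdha2: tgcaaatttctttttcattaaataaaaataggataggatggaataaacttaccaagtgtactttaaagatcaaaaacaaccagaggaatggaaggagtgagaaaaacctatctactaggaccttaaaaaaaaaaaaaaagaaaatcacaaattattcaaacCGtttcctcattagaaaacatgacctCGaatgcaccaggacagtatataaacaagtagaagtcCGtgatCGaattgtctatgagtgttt

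These stretches hold 8 CpG for Ldhc, 2 for Ldhal6b, 8 for Cox6b2 and 4 for Pdha2. RefSeq promoter windows, from 250 bases before to 50 after a start, were found for 9 of the 10 genes. In these windows the germ-cell isoforms hold fewer CpG than their counterparts: 9 for Ldhc (3 in a second window), 8 for Ldhal6b, 4 for Pdha2, 4 for Pgk2 and 10 for Cox6b2, against 30 for Ldha (13 in a second window), 17 for Ldhb, 21 for Pdha1 and 24 for Pgk1. The median over 32851 promoters was 7, and the middle of the distribution ran from 3 to 20. The 5 germ-cell isoforms lay between 23.3% and 56.5% in rank among all promoters, counting windows with fewer CpG, and the somatic ones between 62.1% and 88.3%.

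The same windows were searched on both strands for motifs that do not overlap each other. The CRE (TGACGTCA) was present in 1.79% of all windows and, among these genes, in the first Ldha window. The GC box (GGGCGG) was present in 35.7% of all windows, and in the first windows of Ldhc and Ldha and those of Cox6b2 and Pgk1. A TATA element (TATAAA) was present in 13.6% of all windows, and in those of Ldhal6b and Pdha2. The string AACNGTCA, searched for A-MYB, was in 2.61% of all windows and in none of these. Shorter or partial forms of the motifs, which the windows may hold, were not searched. A match of letters does not show that a factor binds there, nor does its absence show the reverse.

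The total of fragments per library ran from 5194238 to 14578341 at L/Z and from 9900346 to 23498968 at P0. The targeted genes were at or near 0 where the labels say they are deleted. At L/Z, WT gave 344 and 352 fragments of Pld6 and Pld6 KO gave 0 in each library. At P0 there were 40 to 57 for WT, 0 to 2 for Pld6 KO and 0 for all 3 DKO libraries. For Dnmt3l the L/Z libraries gave 19 and 11 fragments (WT) and 0 in each Dnmt3l KO library, and those of P0 gave 53 to 72 (WT), 1 to 2 (Dnmt3l KO) and 0 to 3 (DKO). Pld6 KO replicate 1 at P0 had 6 fragments of Dnmt3l, against 30 to 145 in the other 3 Pld6 KO libraries, although its label names no deletion of Dnmt3l. The summed CPM of 7 prospermatogonial markers was 87.7 in that library and 249 to 303 in the other 3. The part of these markers in the low Dnmt3l count was not tested. At L/Z, WT replicate 1 and Pld6 KO replicate 1 held 8.27% and 8.06% of their fragments in the ribosomal precursor Rn45s, against 0.134% to 0.301% in the other 4. At P0, DKO replicate 1 held 4.43%, and the other libraries with a value held 0.104% to 0.981%. The P0 Pld6 KO libraries have no value, since the status of Rn45s there was not OK. Without DKO replicate 1 edgeR called 0 of the 9 tested genes in each DKO comparison. At P0, Dnmt3l KO replicate 1 stood apart from the other 10 libraries in the genes of meiosis, as described with the P0 values. For several of the 10 genes, results that rest on these libraries are also given without them or with a factor for Rn45s-rich libraries. Values of single marker and pathway genes come from the fit with all libraries only.

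In WT L/Z spermatocytes the FPKM scale, which divides by gene length, placed Cox6b2 highest among the 10 genes, at 83.8 ± 26.0 FPKM (SD, n = 2). Ldhb followed with 62.8 ± 9.38 FPKM, Cox8c with 51.4 ± 23.4 FPKM, Pgk1 with 28.6 ± 5.98 FPKM and Ldhc with 22.7 ± 11.3 FPKM. Pdha2 had 14.3 ± 7.08 FPKM, Pdha1 12.0 ± 2.05 FPKM, Ldha 9.85 ± 2.28 FPKM, Ldhal6b 5.37 ± 2.70 FPKM and Pgk2 0.304 ± 0.0853 FPKM. The WT libraries of neighbours in this order overlapped from Cox6b2 to Ldhb, from Ldhb to Cox8c, and along the run Pgk1, Ldhc, Pdha2, Pdha1 and Ldha, so these neighbours are not separated beyond their spread. Ldhal6b and Pgk2 were below every gene above them in both libraries. Cox6b2 and Cox8c remained below their widely expressed counterparts Cox6b1 (406 ± 70.6 FPKM) and Cox8a (244 ± 7.60 FPKM).

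The germ-cell isoforms were also uneven between the 2 WT libraries. In CPM (TMM-scaled fragments divided by the library total), WT replicate 2 exceeded replicate 1 by a ratio of 2.09 for Ldhc, 2.11 for Ldhal6b, 2.08 for Pdha2, 1.95 for Cox8c and 1.56 for Cox6b2. The ratio was 0.755 for Ldha, 0.810 for Ldhb, 0.784 for Pdha1 and 1.35 for Pgk1. The summed CPM of 10 markers of L/Z spermatocytes was 2184 in WT replicate 1 and 4271 in WT replicate 2, and that of 16 markers of pachytene and later cells was 137 and 321. Their part in the difference between WT libraries was not tested.

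In WT L/Z spermatocytes the balance of germ-cell and somatic isoforms differed by enzyme, as the share of each isoform within its own family shows. Within a library this share of summed FPKM does not depend on library scaling. Pdha2 made up 40.9% and 64.8% of PDH E1 alpha FPKM (Pdha1 plus Pdha2) in WT replicates 1 and 2, with 95% Wilson intervals of 37.1% to 44.9% and 61.5% to 67.9%, which cover counting error only. Ldhc made up 14.8% and 30.0% of LDH FPKM, and Ldhal6b 3.49% and 7.11%. Ldhb remained the main LDH transcript with 70.1% and 54.9%, and Ldha had 11.6% and 8.04%. Pgk2 made up 1.47% and 0.735% of PGK FPKM, from 6 and 4 fragments, so Pgk1 supplied nearly all PGK transcripts at this stage. Cox8c made up 12.7% and 21.4% of Cox8a plus Cox8c, and Cox6b2 15.5% and 18.3% of Cox6b1 plus Cox6b2.

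**Figure D1:**
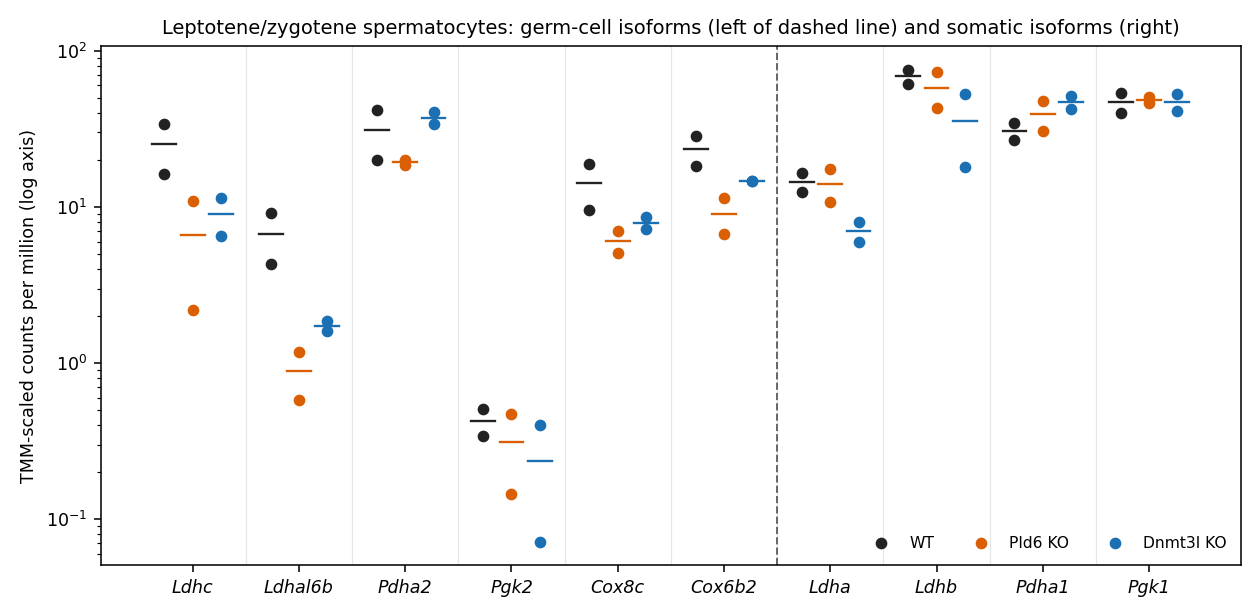
CPM (TMM-scaled, log axis) of the 10 genes in each of the 6 L/Z libraries, 1 point per library, with a dashed line between germ-cell and somatic isoforms. In Pld6 KO the points of Ldhc (2.18 and 10.96) and Ldhal6b (0.582 and 1.18) lie below both WT points (16.3 and 34.2, 4.32 and 9.10), while those of Pgk1 are mixed with WT.

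The comparison of Pld6 KO with WT at L/Z asked whether loss of piRNA biogenesis alters these transcripts. In both single mutants, per the study's paper, germ cells die at late zygotene. Their testes therefore lacked the later germ cells that WT testes held, and L/Z cells were sorted from each. The part of this difference between testes in the values of the sorted cells was not tested. The 5 tested germ-cell isoforms were lower in both Pld6 KO libraries than in both WT libraries, which held for none of the 4 somatic isoforms. It did hold for Cox8a and Cox6b1, the somatic counterparts of Cox8c and Cox6b2, which are not among those 4. Of a list of 13 tested COX genes that includes both, 11 were lower in this way and 0 higher. Of 18 glycolytic genes and glucose transporters, 9 were lower in this way and 1 higher. Over all 14662 genes tested, 21.3% were lower in this way and 21.6% higher. None of the 9 genes passed edgeR's quasi-likelihood test at a Benjamini-Hochberg adjusted p under 0.05 and a fold change over 2, a rule that called 0.225% of all genes. At an unadjusted p under 0.05 there were 4 (Ldhc, Ldhal6b, Cox8c and Cox6b2), as for 9.17% of all genes, and DESeq2 called 2 (Ldhal6b and Cox6b2), with 0.614% of all genes. The median log2 fold change was -1.39 over the 5 germ-cell isoforms and 0.01 over the 4 somatic isoforms, beside 0.00 over all genes tested. In bulk RNA, fewer cells of a type and less RNA per cell cannot be told apart.

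Ldhc, the LDH of spermatocytes and sperm, was at 16.3 and 34.2 CPM in WT and at 2.18 and 10.96 CPM in Pld6 KO. The WT and KO values did not overlap, and Pld6 KO replicate 1 was the lowest of the 6 libraries with 15 fragments. The log2 fold change was -1.88 ± 0.59 (SE; 95% interval -3.18 to -0.59; edgeR adjusted p = 0.367). Left with the Rn45s-rich Pld6 KO replicate 1 alone, whose spread was then taken from the other groups, Ldhc was called at -3.53 (edgeR adjusted p = 0.0118, with 0.239% of all genes). Without that library it was -1.20 (edgeR adjusted p = 0.691), and without WT replicate 2 it was -1.26.

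Ldhal6b, an LDH A-like gene of the testis, had the largest fold change of the 9 tested genes. It was at 4.32 and 9.10 CPM in WT, from 51 and 107 fragments, and at 0.582 and 1.18 CPM in Pld6 KO, from 4 and 15. On the log scale both KO libraries were below both WT libraries by more than the WT libraries differed from each other. The log2 fold change was -2.84 ± 0.59 (95% interval -4.13 to -1.55; edgeR adjusted p = 0.115), and leaving out single libraries gave adjusted p between 0.0539 and 0.498.

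The COX subunit isoforms were lower as well. Cox6b2, which encodes a subunit facing the intermembrane space, was at 18.3 and 28.5 CPM in WT and at 11.3 and 6.70 CPM in Pld6 KO, a log2 fold change of -1.39 ± 0.35 (edgeR adjusted p = 0.227). Cox8c was at 9.57 and 18.7 CPM in WT and at 5.09 and 7.02 CPM in Pld6 KO, a log2 fold change of -1.21 ± 0.40 (edgeR adjusted p = 0.393). For both genes the highest KO library lay below the lowest WT library. Their counterparts Cox6b1 and Cox8a were lower without overlap too, at log2 fold changes of -0.38 ± 0.24 and -0.46 ± 0.21, so the share of Cox6b2 in its pair was 12.7% and 6.82% in Pld6 KO beside 15.5% and 18.3% in WT.

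Pdha2, the catalytic PDH subunit isoform of meiotic cells, was at 20.1 and 41.7 CPM in WT and at 18.6 and 20.0 CPM in Pld6 KO. The KO values lay just under WT replicate 1, and the log2 fold change of -0.68 ± 0.33 (edgeR adjusted p = 0.563) became -0.05 without WT replicate 2. Pgk2 had 6 and 4 fragments in WT and 1 and 6 in Pld6 KO, too few to compare.

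The somatic isoforms gave values on both sides of WT. Ldha was at 16.4 and 12.4 CPM in WT and 17.4 and 10.7 CPM in Pld6 KO, a log2 fold change of -0.04 (95% interval -0.80 to 0.71). Ldhb was at 75.9 and 61.5 CPM in WT and 73.4 and 42.9 CPM in Pld6 KO (-0.25, interval -1.15 to 0.66). These LDH groups overlapped. Pdha1 was at 34.5 and 27.0 CPM in WT and 47.7 and 30.6 CPM in Pld6 KO (log2 fold change 0.34, interval -0.26 to 0.94). Pgk1 was at 39.8 and 53.6 CPM in WT and 46.7 and 50.5 CPM in Pld6 KO (0.06, interval -0.47 to 0.59). These groups overlapped as well. The intervals of Ldha and Ldhb include a log2 difference as low as that of Pdha2 (-0.68), and those of Pdha1 and Pgk1 do not.

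WT and Pld6 KO each had 1 library rich in Rn45s and 1 poor in it, so the difference could be taken within each kind. For Ldhal6b the log2 difference of Pld6 KO from WT was -2.89 among the Rn45s-rich libraries and -2.94 among the others. For Ldhc it was -2.91 and -1.64, for Cox8c -0.91 and -1.41, and for Cox6b2 -0.69 and -2.09. For Pdha2 it was -0.11 among the rich libraries and -1.06 among the others. A fit with a factor for the Rn45s-rich libraries called Ldhc (-2.13, edgeR adjusted p = 0.0170) and Ldhal6b (-2.91, edgeR adjusted p = 0.0141), with 0.689% of all genes called. The marker sums of the 2 Pld6 KO libraries were 2631 and 4151 CPM for L/Z spermatocytes and 128 and 156 CPM for pachytene and later cells, against 2184 and 4271, and 137 and 321, in WT. The median log2 fold change of the tested markers was 0.22 for L/Z spermatocytes and 0.30 for pachytene and later cells, so the latter sums do not stand for the typical marker. Of these markers 0 were called by edgeR (10 and 7 tested), and Prm2 was at 0 in all 6 libraries. The part of the markers in the germ-isoform values was not tested.

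**Figure D2:**
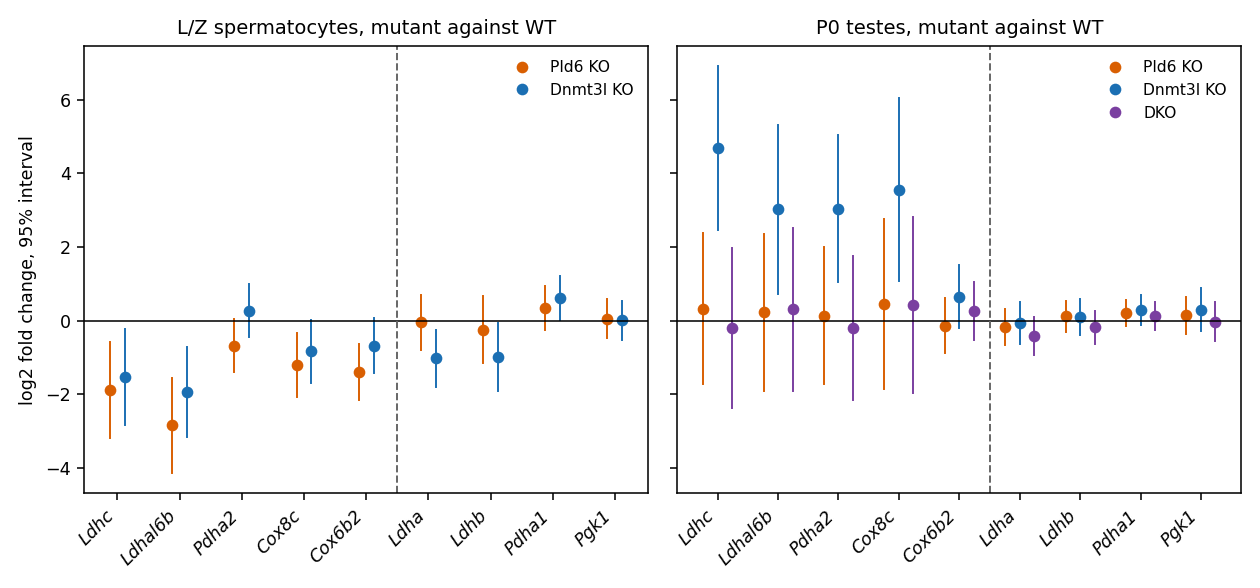
Log2 fold change against WT with its 95% interval (edgeR) for the 9 tested genes, with L/Z and P0 in separate panels and genotypes in colour. The intervals of Ldhc and Ldhal6b in L/Z Pld6 KO lie below 0 (-3.18 to -0.59 and -4.13 to -1.55), and that of Ldhc in P0 Dnmt3l KO lies above it (2.46 to 6.91), though no gene passed the adjusted test.

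The comparison of Dnmt3l KO with WT at L/Z asked the same of the loss of DNA methylation. It used the same 2 WT libraries as the comparison above, so the results are not independent. Here 4 of the 5 tested germ-cell isoforms (all but Pdha2) and the somatic Ldha and Ldhb were lower in both KO libraries than in both WT libraries, and Pdha1 was higher. Over all genes tested, 27.5% were lower without overlap and 28.1% higher. None of the 9 genes was called by edgeR, which called 5.47% of all genes. At an unadjusted p under 0.05 there were 5 (Ldhc, Ldhal6b, Ldha, Ldhb and Pdha1), as for 26.7% of all genes, and DESeq2 called 1 (Ldhal6b), with 6.78% of all genes. The median log2 fold change was -0.83 over the 5 germ-cell isoforms and -0.49 over the somatic ones, beside -0.04 over all genes.

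Ldhal6b was at 1.60 and 1.86 CPM in Dnmt3l KO, from 8 and 26 fragments, both below the WT values of 4.32 and 9.10 CPM. The log2 fold change was -1.93 ± 0.56 (95% interval -3.15 to -0.70; edgeR adjusted p = 0.0598). Ldhc was at 11.4 and 6.51 CPM in Dnmt3l KO, again below the WT values of 16.3 and 34.2 CPM, with a log2 fold change of -1.53 ± 0.59 (interval -2.83 to -0.23; edgeR adjusted p = 0.129). Both germ-cell LDH genes were called when the spread was estimated without Pld6 KO replicate 1 (edgeR adjusted p = 0.0214 for Ldhc and 0.0416 for Ldhal6b), without Pld6 KO replicate 2 (0.0285 and 0.0474), or from WT and Dnmt3l KO alone (0.0212 and 0.0372), fits that called 6.51%, 6.25% and 6.49% of all genes. Neither was called when a WT or Dnmt3l KO library was left out (edgeR adjusted p = 0.141 to 0.416 for Ldhc and 0.0873 to 0.260 for Ldhal6b), and without WT replicate 2 the values were -0.90 for Ldhc and -1.30 for Ldhal6b.

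The somatic LDH genes were lower beside them. Ldha was at 5.999 and 8.02 CPM in Dnmt3l KO against 16.4 and 12.4 CPM in WT (log2 fold change -1.02 ± 0.35, edgeR adjusted p = 0.101). Ldhb, the main LDH of these cells, was at 52.8 and 18.1 CPM against 75.9 and 61.5 CPM (-0.99 ± 0.42, edgeR adjusted p = 0.164), and its value was -1.95 without Dnmt3l KO replicate 1 and -0.38 without replicate 2. Thus all 4 LDH genes were below WT in both Dnmt3l KO libraries, and the share of Ldhc within the family, 15.98% and 19.9%, lay between the WT values of 14.8% and 30.0%. In Pld6 KO the share of Ldhc was 2.40% and 17.2%, from 15 and 139 fragments, and that of Ldhb was 82.2% and 68.4%.

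The PDH isoforms did not follow the LDH genes. Pdha2 was at 40.8 and 34.0 CPM in Dnmt3l KO, between the WT values of 20.1 and 41.7 CPM, with a log2 fold change of 0.27 ± 0.33 (interval -0.44 to 0.98; edgeR adjusted p = 0.625). Its sign turned without WT replicate 1 (-0.16). Pdha1 was at 42.2 and 51.7 CPM, above the WT values of 34.5 and 27.0 CPM, with a log2 fold change of 0.61 ± 0.27 (edgeR adjusted p = 0.179). The share of Pdha2 in the pair was 53.5% and 43.9%, inside the WT range.

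Pgk1 was at 41.0 and 52.6 CPM in Dnmt3l KO, within the WT range (log2 fold change 0.01, interval -0.52 to 0.54), and Pgk2 had 2 fragments and 1. Cox8c was at 7.20 and 8.59 CPM, below the WT values of 9.57 and 18.7 CPM (-0.83 ± 0.39, edgeR adjusted p = 0.201). Cox6b2 was at 14.6 and 14.7 CPM, below the WT values of 18.3 and 28.5 CPM (-0.68 ± 0.34, edgeR adjusted p = 0.223). In both COX genes the gap to WT replicate 1 was smaller than the gap between the 2 WT libraries.

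Both Dnmt3l KO libraries were poor in Rn45s. Against WT replicate 2 alone, the Rn45s-poor WT library, the log2 difference of the Dnmt3l KO mean was -1.99 for Ldhc, -2.40 for Ldhal6b, -1.25 for Cox8c, -0.96 for Cox6b2, -0.16 for Pdha2, -0.84 for Ldha and -0.99 for Ldhb. With the factor for Rn45s-rich libraries edgeR called Ldhc (-2.23, adjusted p = 0.00846) and Ldhal6b (-2.35, adjusted p = 0.0171), with 4.52% of all genes called. The L/Z marker sum was 8612 and 7279 CPM in Dnmt3l KO, above the WT values of 2184 and 4271, and 7 of the 10 markers were called higher. The sum of pachytene and later markers was 457 and 256 CPM against 137 and 321 in WT, with 0 of the 7 tested called higher and 2 lower (Piwil1 and Spag6, named after their values were seen). The sum of 8 spermatogonial markers was 719 and 1169 CPM against 1337 and 1284, and that of 8 Sertoli cell markers 84.4 and 33.1 against 158 and 106. The part of these marker differences in the values of the isoforms was not tested.

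Between the mutants, Dnmt3l KO against Pld6 KO at L/Z, 4 of the 5 tested germ-cell isoforms (Ldhal6b, Pdha2, Cox8c and Cox6b2) were higher in both Dnmt3l KO libraries and Ldha was lower, where 26.9% and 26.2% of all genes were higher and lower without overlap. No gene of the 9 was called by edgeR, which called 0.0477% of all genes, and DESeq2 called 0. At an unadjusted p under 0.05 there were 2, Pdha2 and Ldha, as for 17.5% of all genes. Pdha2 had a log2 fold change of 0.95 ± 0.33 (interval 0.22 to 1.67; edgeR adjusted p = 0.201), and its KO values were 40.8 and 34.0 CPM in Dnmt3l KO against 18.6 and 20.0 CPM in Pld6 KO. For Ldhc the difference was 0.35 ± 0.60 (interval -0.97 to 1.68), and 1 library decided its sign: it was -0.33 without Pld6 KO replicate 1 and 2.00 without Pld6 KO replicate 2. Without the Rn45s-rich Pld6 KO replicate 1, edgeR called 0 and the values were 0.90 for Pdha2, 1.13 for Cox6b2, 0.56 for Ldhal6b, 0.18 for Cox8c and -0.59 for Ldha. With the factor for Rn45s-rich libraries they were 0.65, 0.72, 0.56, 0.06 and -0.66, again with 0 called.

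Among related genes of the same pathways at L/Z, 0 were called by edgeR in Pld6 KO in any of 5 lists: 18 glycolytic genes and glucose transporters, 6 tested carriers and enzymes of lactate and pyruvate transport, 11 PDH genes, 13 tested COX genes and 7 tested other germ-cell isoforms. The median log2 fold change was -0.11 for glycolysis, -0.49 for transport, 0.20 for PDH, -0.49 for COX and -0.14 for the other germ-cell isoforms. In Dnmt3l KO edgeR called 4 glycolytic genes lower and 1 higher of 18, where 1.58% of all genes were called lower and 3.89% higher, and 0 in the other lists. The glycolysis median was -0.87, beside -0.04 over all genes.

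Hexokinase 1, Hk1, which phosphorylates glucose, was at 60.6 and 51.0 CPM in WT. It fell to 15.2 and 30.6 CPM in Dnmt3l KO (log2 fold change -1.26 ± 0.30, edgeR adjusted p = 0.0336). Triosephosphate isomerase, Tpi1, fell by 1.19 (edgeR adjusted p = 0.0434), and the aldolase gene Aldoa fell by 1.18 on the log2 scale (edgeR adjusted p = 0.0234). The glucose transporter Slc2a3, named as the remaining one of the 4 after its values were seen, fell by 1.104 (edgeR adjusted p = 0.0415). In Pld6 KO, where none of these was called, Slc2a3 (16.4 and 17.3 CPM) was also below both WT libraries (26.3 and 36.9 CPM). So was Tpi1, at 11.2 and 10.3 CPM against 19.7 and 17.2 CPM, while Hk1 and Aldoa overlapped WT. The glucose transporter Slc2a1 was at 45.2 and 51.1 CPM in Pld6 KO, above both WT libraries. In Dnmt3l KO against WT it rose, from 22.7 and 23.0 CPM to 68.4 and 39.4 CPM (1.23 ± 0.28, edgeR adjusted p = 0.0299). Calls in this comparison rested on Dnmt3l KO replicate 1, the library with the fewest fragments: without it edgeR called 1 gene of all those tested instead of 802, and without WT replicate 1 it called 91.

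Per the study's paper, germ cells at P0 are prospermatogonia only, and whole testes also hold somatic cells such as Sertoli and Leydig cells. Markers of meiotic cells were nevertheless high in Dnmt3l KO replicate 1, as described below. The order of the 10 genes was different from that at L/Z. In WT, Ldhb was at 279 ± 39.5 FPKM (SD, n = 2), Ldha at 137 ± 22.6 FPKM, Pgk1 at 60.2 ± 8.86 FPKM, Pdha1 at 36.9 ± 4.23 FPKM and Cox6b2 at 34.3 ± 3.50 FPKM. Cox8c was at 2.40 ± 2.20 FPKM, Ldhc at 1.13 ± 0.473 FPKM, Ldhal6b at 0.683 ± 0.225 FPKM and Pdha2 at 0.380 ± 0.214 FPKM. Neighbouring genes overlapped between Pdha1 and Cox6b2 and along the run Cox8c, Ldhc, Ldhal6b and Pdha2. Cox6b2 was the only one of the 6 germ-cell isoforms with over 70 fragments in every P0 library (71 to 268), and Pgk2 had 0 fragments in both WT libraries, which allows a share of up to 0.278% and 0.227% of PGK counts.

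In 10 of the 11 P0 libraries the shares of the germ-cell isoforms were low. Without Dnmt3l KO replicate 1, Ldhc made up 0.212% to 0.529% of LDH FPKM, Ldhal6b 0.0395% to 0.263%, Pdha2 0.248% to 1.74% of its pair, Cox8c 0.295% to 2.06% and Pgk2 0% to 0.767%. Each of the first 4 ranges lay below all 6 L/Z libraries, where the lowest shares were 2.40% for Ldhc, 0.570% for Ldhal6b, 31.7% for Pdha2 and 9.92% for Cox8c. Cox6b2 made up 4.68% to 12.1% of its pair at P0, which overlapped the L/Z range of 6.82% to 18.3%. Ldha made up 20.6% to 33.1% of LDH FPKM at P0 and 6.67% to 18.9% at L/Z. The tables of the stages were normalised separately, and sorted cells and whole testes differ in makeup, so these ranges are a description without a test.

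**Figure D3:**
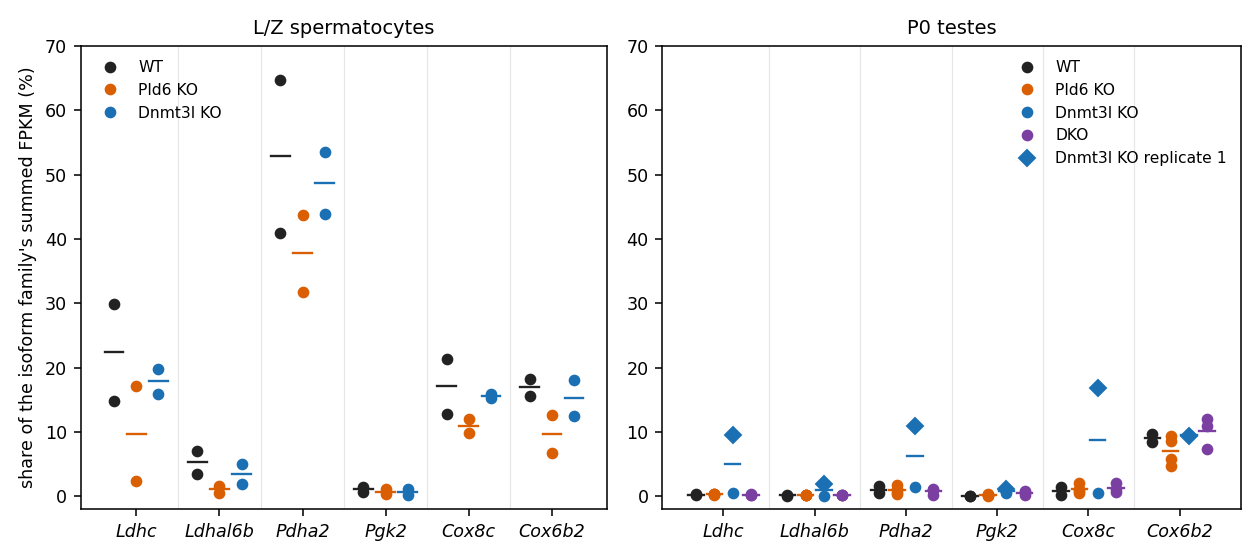
Share (%) of each isoform in the summed FPKM of its family, 1 point per library, lines at the group means, L/Z and P0 groups side by side. Pdha2 lies between 31.7% and 64.8% in the L/Z libraries and below 2% in the P0 libraries other than Dnmt3l KO replicate 1, where it is 10.998%.

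Pld6 KO, DKO and WT testes at P0 had like values. Ldhc had 11 and 20 fragments (WT), 16, 21, 21 and 18 (Pld6 KO) and 14, 16 and 20 (DKO). Pdha2 had 14 and 6 fragments (WT), 8, 18, 4 and 13 (Pld6 KO) and 2, 14 and 20 (DKO). These groups overlapped, as did those of Pld6 KO and WT for all 9 tested genes, where 5.83% and 5.69% of all genes were higher and lower without overlap. In Pld6 KO against WT edgeR called 0 of the 9 genes (0.00629% of all genes), with 0 at an unadjusted p below 0.05 (5.06% of all genes) and 0 by DESeq2. The log2 fold changes of the germ-cell isoforms ran from -0.14 to 0.45 and the adjusted p of all 9 from 0.970 to 0.994. Without Pld6 KO replicate 1, the library with few Dnmt3l fragments, edgeR again called 0 of the 9 and the adjusted p ran from 0.929 to 0.988. At these low counts the intervals were wide, as for Ldhc (0.33, interval -1.71 to 2.37), so differences inside them were not detectable at this depth.

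In DKO against WT edgeR likewise called 0 of the 9 (0.0126% of all genes), with 0 at an unadjusted p below 0.05 (7.97% of all genes) and 0 by DESeq2, and adjusted p from 0.716 to 0.986. Ldha alone was lower without overlap, at 143, 166 and 144 CPM in DKO against 180 and 223 CPM in WT (log2 fold change -0.42 ± 0.24), where 13.4% of all genes were lower and 15.7% higher. In DKO against Pld6 KO edgeR called 0 of the 9 (0.0% of all genes), with 0 at an unadjusted p below 0.05 (6.02% of all genes) and 0 by DESeq2, and the groups of all 9 overlapped, where 3.31% and 3.04% of all genes were higher and lower without overlap. Both comparisons use the same 3 DKO libraries. Without Pld6 KO replicate 1, edgeR again called 0 of the 9 in each, with 6 (DKO against WT) and 2 (DKO against Pld6 KO) of all 15901 genes called.

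Dnmt3l KO at P0 was split between its 2 libraries. Ldhc had 749 fragments (65.7 CPM) in replicate 1 and 24 (2.08 CPM) in replicate 2, and 11 to 24 fragments in the 10 libraries other than replicate 1. Ldhal6b had 165 and 2 fragments (2 to 23 in those 10), Cox8c 203 and 4 (3 to 33), Pdha2 145 and 16 (2 to 20) and Pgk2 17 and 5 (0 to 12). All 5 were highest in replicate 1. In replicate 2, Pdha2, Cox8c and Pgk2 lay within the range of the 9 libraries of the other genotypes, whereas Ldhc was just above it (11 to 21 fragments) and Ldhal6b below it (8 to 23). Relative to the median CPM of the other 10 libraries, replicate 1 was higher by a ratio of 41.5 for Ldhc, 20.2 for Cox8c, 14.1 for Ldhal6b, 13.4 for Pdha2 and 5.79 for Pgk2. The ratio was 1.67 for Cox6b2, which was not the highest there, 1.45 for Ldha, 1.34 for Ldhb, 1.43 for Pgk1 and 1.17 for Pdha1.

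Ratios over 4 were found in that library for 162 of 15889 genes (1.02%), over 8 for 55 (0.346%) and over 16 for 18 (0.113%), whereas in each of the other libraries 2 to 27 genes had a ratio over 8. The library was the highest of all 11 for 16.97% of tested genes. The shares of the isoforms in it were 9.58% for Ldhc, 1.89% for Ldhal6b, 10.998% for Pdha2, 16.9% for Cox8c, 1.17% for Pgk2 and 9.40% for Cox6b2. Those of Ldhc, Ldhal6b and Cox8c lay within their L/Z ranges, and that of Pdha2 below its L/Z range.

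Markers of meiotic cells were high in the same library. Of 10 L/Z spermatocyte markers 9 were above all other P0 libraries, with a sum of 275 CPM against 61.1 to 125, and of 16 markers of pachytene and later cells 5 were, with a sum of 69.5 CPM against 21.7 to 39.0. Of 7 prospermatogonial markers 2 were above all others (305 CPM against 87.7 to 308), and of 8 Sertoli cell markers 1 was (1193 against 1009 to 1837). Of 8 spermatogonial markers 1 was, and of 6 Leydig cell and 6 blood cell markers 0 were. Of 11 other germ-cell isoforms 5 were above all others, with a sum of 74.8 CPM against 24.1 to 44.9. No marker of these lists was at 0 in all P0 libraries. The library had 2 fragments of Dnmt3l, as its label implies, and the part of the marker genes in the isoform values was not tested.

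**Figure D4:**
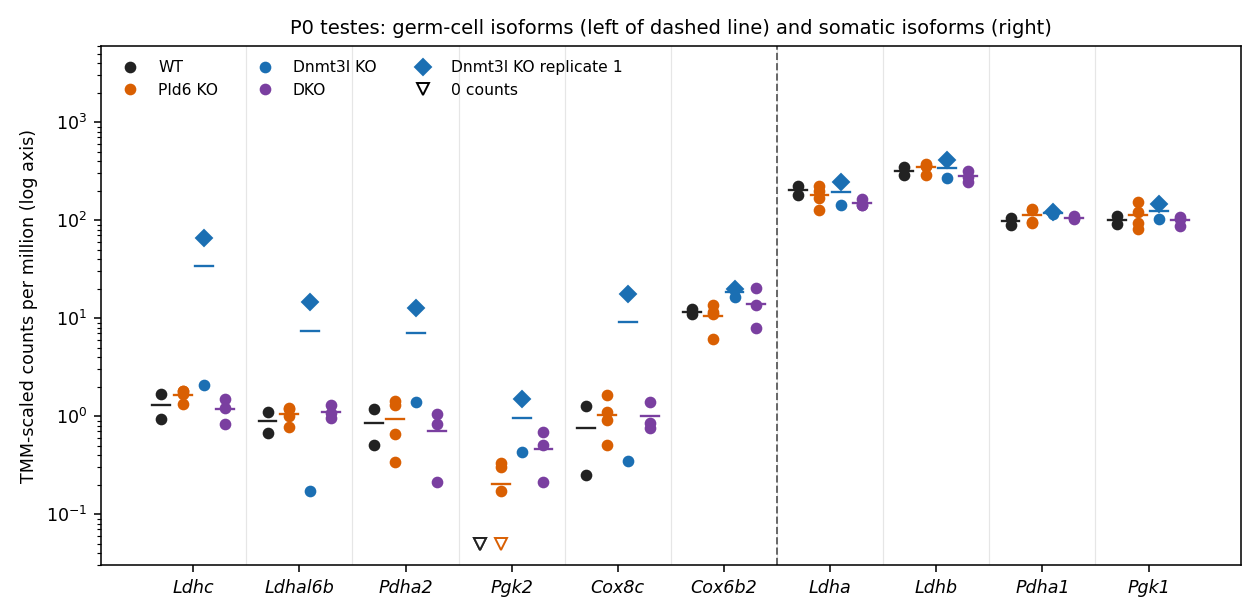
CPM (TMM-scaled, log axis) of the 10 genes in each of the 11 P0 libraries, with Dnmt3l KO replicate 1 drawn as a diamond and libraries with 0 fragments as open triangles at the bottom. The diamond lies at 65.7 for Ldhc, 17.8 for Cox8c, 14.5 for Ldhal6b and 12.7 for Pdha2, apart from all other points, and among the others for Cox6b2.

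With both libraries, Dnmt3l KO against WT at P0 gave log2 fold changes of 4.68 ± 1.03 for Ldhc (edgeR adjusted p = 0.256), 3.56 ± 1.15 for Cox8c (0.305), 3.04 ± 0.93 for Pdha2 (0.293) and 3.03 ± 1.07 for Ldhal6b (0.315). Cox6b2 was at 20.0 and 16.6 CPM against 10.96 and 12.3 CPM in WT, without overlap (0.65 ± 0.40). Of the 9 genes edgeR called 0 (0.0% of all genes), 4 had an unadjusted p under 0.05 (12.9% of all genes), and DESeq2 called 1, Ldhc, with 0.447% of all genes. Higher without overlap were 4 (Ldhc, Pdha2, Cox6b2 and Pdha1), as were 25.3% of all genes, with 24.3% lower. Without replicate 2, edgeR called Ldhc (5.62, adjusted p = 7.01e-05), Ldhal6b (4.00, 0.00451) and Cox8c (4.52, 0.0212), with 0.164% of all genes, a fit in which the lone library is assumed to vary like the others. Without replicate 1, 0 were called and the values were 0.67 for Ldhc, 0.71 for Pdha2, -1.11 for Cox8c and -2.29 for Ldhal6b.

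DKO against Dnmt3l KO at P0 shares those 2 Dnmt3l KO libraries. The log2 fold changes were -4.89 ± 0.88 for Ldhc (edgeR adjusted p = 0.0612), -3.24 ± 0.80 for Pdha2 (0.0960), -3.13 ± 0.95 for Cox8c (0.139) and -2.72 ± 0.90 for Ldhal6b (0.161). Of the 9 genes edgeR called 0 (0.0755% of all genes), 4 had an unadjusted p under 0.05 (17.8% of all genes) and DESeq2 called 3 (Ldhc, Pdha2 and Cox8c), with 1.62% of all genes. Lower without overlap were Ldhc, Pdha2 and Pdha1, as were 18.7% of all genes, with 19.4% higher. Ldhc was called without Pld6 KO replicate 1, 3 or 4 (edgeR adjusted p = 0.0475, 0.0407 and 0.0457, with 0.409%, 0.478% and 0.283% of all genes), and Ldhc, Ldhal6b, Pdha2 and Cox8c without Dnmt3l KO replicate 2 (0.358% of all genes). Without Dnmt3l KO replicate 1 the values were -0.85 for Ldhc, -0.91 for Pdha2, 1.54 for Cox8c and 2.60 for Ldhal6b, with 0 called.

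Whether an effect differed between L/Z cells and P0 testes was tested as an interaction, in which stage cannot be told apart from tissue and read type. For Pld6 KO edgeR called 0 of the 9 (0.0121% of all genes), with 1 at an unadjusted p under 0.05 (Cox6b2, 9.52% of all genes) and 0 by DESeq2. Ldhal6b had a difference of -3.08 ± 1.46 (edgeR adjusted p = 0.526) and Cox6b2 one of -1.27 ± 0.47 (0.442). For Dnmt3l KO edgeR called 0 of the 9 (0.665% of all genes), with 6 at an unadjusted p under 0.05 (17.2% of all genes) and 2 by DESeq2 (Ldhc and Ldhal6b, with 4.22% of all genes). The difference was -6.22 ± 1.45 for Ldhc (edgeR adjusted p = 0.0670), -4.95 ± 1.46 for Ldhal6b (0.112) and -4.39 ± 1.43 for Cox8c (0.142). Without P0 Dnmt3l KO replicate 1 these were -2.23, 0.32 and 0.24, with 0 called. Without replicate 2 edgeR called Ldhc, Ldhal6b, Cox8c and Pdha2 (0.822% of all genes), and the spread of the lone library was then taken from the other groups.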

How the data were processed

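Per the labels and the study's methods, poly(A) RNA was made into stranded TruSeq libraries and aligned to mm10 with TopHat, and the authors counted with Cuffdiff (versions and settings are not given in the sources used here). The deposited tables, 1 per stage, give for each gene and replicate estimated counts of fragments, of which 98.4% (L/Z) and 98.3% (P0) are whole, and FPKM as computed by the authors, that is, fragments scaled by gene length and library total. The 2 columns of scaled fragments per replicate were not used. Replicates start at 0 in the tables and at 1 in the labels and were matched in ascending order. Genes whose status was not OK (6 at L/Z, 2 at P0) were left out.

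Estimated counts were rounded and fitted with edgeR 4.0.16 (R 4.3.3) by quasi-likelihood, after filterByExpr and TMM, with all libraries of a stage in 1 fit and no covariate. Calls needed a Benjamini-Hochberg adjusted p under 0.05 over all genes tested (14662 at L/Z, 15901 at P0, 16547 for interactions) and a fold change over 2. Interactions needed the adjusted p only. DESeq2 1.42.0 on the counts and limma 3.58.1 on log2(FPKM + 1) were alternatives, and p-values measure the spread between libraries, which may be in part technical. CPM are counts scaled by TMM library sizes. Shares of FPKM carry Wilson intervals from counts, which like the limits for 0 counts (3 fragments) cover counting error only. Reads carried no molecular identifiers. The fit was tested on simulated data for L/Z Pld6 KO against WT (14388 genes). It recovered 20 of 50 genes changed 2-fold and 50 of 50 changed 4-fold, with 15 false calls. The changed genes were drawn only from those with a mean of at least 50 fragments over the libraries. Recovery was not split by Rn45s content either. It therefore cannot show what was detectable for genes with few fragments. In the real libraries of that comparison Ldhal6b, with 4 to 107 fragments and a log2 fold change of -2.84, was not called by edgeR. Depth was 5194238 to 14578341 fragments at L/Z and 9900346 to 23498968 at P0.

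Promoter windows came from RefSeq (GRCm38.p6) and exons from GENCODE M21. All 10 genes are named in each comparison, with Cox8a and Cox6b1, Pld6 and Dnmt3l, and up to 3 called genes per pathway list. Mpc1l and Adgre1, on lists, were not listed. The genes and lists were chosen with earlier results of these data known.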

Additional observations from a re-analysis of the deposited data

How the results depend on the processing

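Of 185 counts of called genes among these 10 recomputed under alternatives, 161 stayed as in the text and 24 moved. In L/Z Pld6 KO against WT the count was 1 without the filter on low counts, 2 with a factor for Rn45s-rich libraries, 2 with DESeq2, and 0 to 1 when single libraries were left out. In L/Z Dnmt3l KO against WT it was 1 without the filter, 2 with the Rn45s factor, 2 with only the groups compared, 1 with DESeq2, and 0 to 2 with single libraries left out. In P0 Dnmt3l KO against WT it was 1 with DESeq2 and 0 to 3 with libraries left out. In P0 DKO against Dnmt3l KO it was 1 without the filter, 3 with DESeq2 and 0 to 4 with libraries left out. For the Dnmt3l KO interaction it was 1 without the filter, 2 with DESeq2 and 0 to 4 with libraries left out. It was 0 in the other comparisons under every alternative run. With limma on log2(FPKM + 1) or log2(FPKM + 0.1) it was 0 in every comparison within a stage. Apart from the libraries left out, the cause was not tested.

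Replicate numbers are shared between groups but nothing in the labels pairs them. At L/Z deviations of same-numbered libraries correlated at 0.485 between WT and Pld6 KO, -0.144 between WT and Dnmt3l KO and -0.135 between the mutants, and at P0 at -0.332 to 0.271. With the replicate block the count was 2 in L/Z Dnmt3l KO against WT (Ldhal6b and Ldhb) and 0 elsewhere. A crossed pairing, chosen after seeing the data, gave 2 in L/Z Pld6 KO and 3 in L/Z Dnmt3l KO.

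Of 1929 fold changes under alternatives, 45 passed the test where the value in the text had not, and since none of the values in the text was called, none could be lost. The sign of 83 uncalled values changed. Over all genes, L/Z Pld6 KO against WT had 33 calls, but 1 with only the groups compared and 101 with the Rn45s factor. Of 42 mean shares, 4 moved by over 1 SD when raw counts replaced FPKM, among them Cox8c in Pld6 KO (8.96%) and in Dnmt3l KO (12.9%) at L/Z. Shares from effective lengths were not run, since those lengths are not given. Pgk2 at both stages, and Pdha2, Ldhc, Ldhal6b and Cox8c at P0, rest on few fragments, which limits what could be detected.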

Other observations

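Of 7 other germ-cell isoforms of energy metabolism tested at L/Z, edgeR called 0 in Pld6 KO, and 2 of them (Cox7b2 and Gk2) were lower without overlap, beside 21.3% of all genes. Slc25a31, the ADP/ATP carrier of meiotic cells, had 217 and 291 CPM (WT), 224 and 261 CPM (Pld6 KO) and 292 and 386 CPM (Dnmt3l KO), so its Pld6 KO values lay within the WT range (log2 fold change -0.07 ± 0.24, edgeR adjusted p = 0.950). Cyct, the testis cytochrome c, had 17.9 and 28.1 CPM (WT), 17.2 and 25 CPM (Pld6 KO) and 11.8 and 27.2 CPM (Dnmt3l KO), and these groups overlapped. Cox7b2, another COX subunit isoform, was at 34.0 and 45.6 CPM in WT and at 16.1 and 23.4 in Pld6 KO, without overlap (edgeR adjusted p = 0.333). Gk2, a glycerol kinase of the testis, had 1.36 and 3.66 CPM in WT and 1.02 and 0.473 CPM in Pld6 KO, from 6 to 43 fragments (-1.81 ± 0.75, edgeR adjusted p = 0.512). At P0, Dnmt3l KO replicate 1 had 164 fragments of Cox7b2 against 16 to 60 in the other 10 libraries, and 155 of Cyct against 27 to 181, which was the highest value in CPM.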
